A study of Homo sapiens with 12 samples.

Results

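LCMT2, NCOA5, TIGD5 and CCNJ are 4 of the 60668 genes in a table of read counts from cultured cancer cells. They were chosen by their log2 fold change in PANC-1 cells carrying a hairpin against FOSL1, from among the largest rises, and because none had a known pathway in common with the other strong rises. Levels are given as CPM, a gene's reads scaled to a fixed library total. When the 11278 genes whose CPM averaged 5 or more over the 6 PANC-1 libraries were ordered by log2 fold change, LCMT2 ranked 2, NCOA5 ranked 3, TIGD5 ranked 4 and CCNJ ranked 7. Since that contrast chose them, their PANC-1 values are given as a description and without a test. All 4 passed the filter on low counts in both cell lines. The values that the choice did not use, and that were tested, are those of H1299 cells.

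RNA was sequenced in 12 libraries, in 4 groups of 3. PANC-1, an established pancreatic adenocarcinoma line, carried either a short hairpin RNA (shRNA) against FOSL1 (shFOSL1, hairpin sh2) or a scrambled hairpin, and H1299, an established lung cancer line labelled as adenocarcinoma, carried either a hairpin against HDAC2 (shHDAC2, hairpin sh1) or the scramble. FOSL1, also called FRA1, is a subunit of the AP-1 transcription factor, and HDAC2 is a histone deacetylase. All lines were stable lentiviral lines selected with puromycin, the control lines included, so each group is a virus-treated culture and none is the untreated parent, although the labels give the controls' genotype as WT. A single hairpin stands for each target, and its effect on FOSL1 or HDAC2 cannot be told apart from other effects of that hairpin or of that line. The labels call the 3 libraries of a group biological replicates, and the sources used here do not say whether they came from separate transductions, so the spread between them may be largely technical.

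The 4 genes have little in common in what they are known to do. LCMT2, also called TYW4, is a methyltransferase that completes wybutosine, a bulky modified base beside the anticodon of phenylalanine tRNA. NCOA5 is a coregulator that binds nuclear receptors, hormone-responsive transcription factors, and can raise or lower their activity. TIGD5 is a gene derived from a DNA transposon of the pogo type, the group that also gave rise to the centromere protein CENPB. Its own function is not established. CCNJ encodes cyclin J, a divergent member of the cyclins, the partners that activate cyclin-dependent kinases. Genes of each of these families are described after the members.

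The targeted genes were as labelled. FOSL1 was at 217 to 242 CPM in the PANC-1 scramble libraries and at 166 to 178 CPM in the shFOSL1 libraries, a log2 fold change of -0.43 (SE 0.0617, adjusted p = 2.9e-06 by edgeR's quasi-likelihood test). That leaves most of the FOSL1 transcript in place. HDAC2 was at 171 to 187 CPM in the H1299 scramble libraries and at 68.5 to 78.4 CPM in the shHDAC2 libraries (log2 fold change -1.26, adjusted p = 5.4e-15 by edgeR). In H1299 shHDAC2 the FOSL1 level rose by 0.40 on the log2 scale (adjusted p = 4.4e-06 by edgeR), and in PANC-1 shFOSL1 the HDAC2 value was 0.050 (adjusted p = 0.56 by edgeR). FOSL1 thus moved in opposite directions in the shFOSL1 and shHDAC2 cells.

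LCMT2 (ENSG00000168806.8) lies on the reverse strand of chromosome 15 from base 43323649 to base 43330582 (GRCh38, GENCODE release 44), and its canonical transcript is 1 exon of 6925 bases, 4783 of them 3′ untranslated. Its counts in the PANC-1 scramble libraries 1, 2 and 3 were 43, 28 and 38 reads, or 2.31, 1.49 and 1.98 CPM after TMM scaling of all 12 libraries. In the shFOSL1 libraries they were 159, 152 and 179 reads, or 9.54, 8.93 and 10.1 CPM. In H1299 the scramble libraries held 198, 157 and 182 reads (10.8, 8.86 and 9.21 CPM) and the shHDAC2 libraries 160, 161 and 174 reads (9.56, 9.43 and 9.15 CPM). The PANC-1 scramble libraries were therefore the low ones, and the other 3 groups overlapped one another. The log2 fold change in PANC-1 was 2.28 (SE 0.179), or 4.85-fold, from 1.93 ± 0.412 to 9.53 ± 0.587 CPM (SD, n = 3). With 28 to 43 reads a library on the scramble side, LCMT2 had the widest error of the 4.

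NCOA5 (ENSG00000124160.12) lies on the reverse strand of chromosome 20 from 46060991 to 46089962, with 8 exons and a transcript of 3224 bases. The PANC-1 scramble libraries held 105, 109 and 117 reads (5.64, 5.81 and 6.11 CPM), and the shFOSL1 libraries 482, 478 and 492 reads (28.9, 28.1 and 27.8 CPM). In H1299 the counts were 977, 836 and 953 reads with the scramble (53.4, 47.2 and 48.2 CPM) and 939, 944 and 1020 reads with shHDAC2 (56.1, 55.3 and 53.6 CPM). No pair of the 4 groups overlapped, and the order was PANC-1 scramble, PANC-1 shFOSL1, H1299 scramble and H1299 shHDAC2. The PANC-1 log2 fold change was 2.25 (SE 0.112), or 4.75-fold, with the smallest SE of the 4, from 5.85 ± 0.235 to 28.3 ± 0.588 CPM (SD, n = 3).

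TIGD5 (ENSG00000179886.6) lies on the forward strand of chromosome 8 from 143597831 to 143603224 and, like LCMT2, has a single exon, of 5394 bases. The PANC-1 scramble libraries held 109, 68 and 76 reads (5.86, 3.63 and 3.97 CPM), and the shFOSL1 libraries 327, 311 and 366 reads (19.6, 18.3 and 20.7 CPM). In H1299 there were 265, 202 and 258 reads with the scramble (14.5, 11.4 and 13.1 CPM) and 204, 205 and 206 reads with shHDAC2 (12.2, 12 and 10.8 CPM). PANC-1 scramble was lowest and PANC-1 shFOSL1 highest, with the overlapping H1299 groups between them. The PANC-1 log2 fold change was 2.10 (SE 0.147), or 4.29-fold. Scramble library 1 was above the other two, and without it the value was 2.36, the largest move that any single library made in the PANC-1 values of the 4 genes.

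CCNJ (ENSG00000107443.16) lies on the forward strand of chromosome 10 from 96043394 to 96060870, with 6 exons and a transcript of 3959 bases. The PANC-1 scramble libraries held 120, 125 and 164 reads (6.45, 6.66 and 8.56 CPM), and the shFOSL1 libraries 425, 471 and 457 reads (25.5, 27.7 and 25.8 CPM). In H1299 the scramble libraries held 107, 125 and 154 reads (5.85, 7.05 and 7.79 CPM) and the shHDAC2 libraries 221, 191 and 230 reads (13.2, 11.2 and 12.1 CPM). The scramble libraries of both lines overlapped, the shHDAC2 libraries lay above them, and the shFOSL1 libraries lay above all others. The PANC-1 log2 fold change was 1.84 (SE 0.12), or 3.58-fold. CCNJ was the only one of the 4 whose knockdown libraries stood well above the scramble in both lines.

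**Figure D1:**
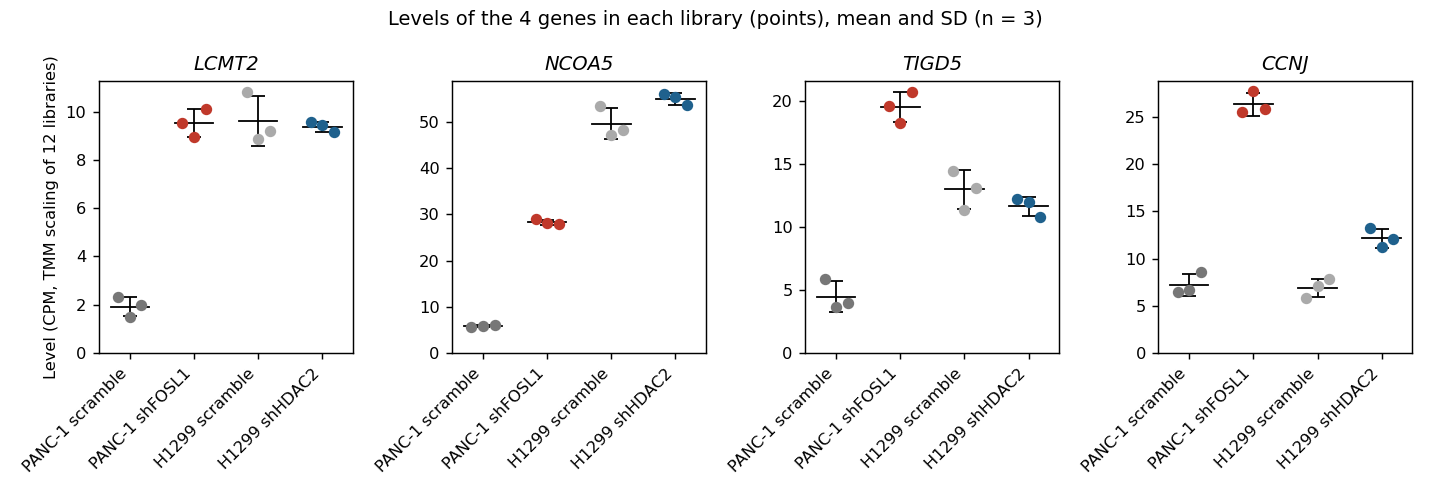
Level in CPM (vertical axes, from 0, TMM scaling of 12 libraries) of each gene in every library of the 4 groups; points are libraries, long lines the means and bars the SD (n = 3). In all 4 panels the PANC-1 shFOSL1 points lie above the PANC-1 scramble points, the NCOA5 points of H1299 lie above those of shFOSL1, and the LCMT2 points of H1299 overlap them.

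Divided by exon length, so that the genes can be compared with each other, LCMT2 was the weakest of the 4 in PANC-1 scramble and CCNJ and NCOA5 overlapped at the top. Levels there were 0.278 ± 0.0594 CPM per kb for LCMT2, 0.831 ± 0.223 for TIGD5, 1.74 ± 0.28 for CCNJ and 1.82 ± 0.073 for NCOA5 (SD, n = 3). In PANC-1 shFOSL1 the order of the genes was the same, from 1.37 CPM per kb for LCMT2 to 8.77 for NCOA5. In H1299 scramble NCOA5 was at 15.4 CPM per kb and the other 3 genes were between 1.39 and 2.41. Levels set between the cell lines rest on a scaling of unlike cells. Without TMM scaling the order of the 4 groups stayed the same for NCOA5 and TIGD5, and changed for LCMT2 and CCNJ.

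The PANC-1 contrast was broad. Of the 16345 genes tested in PANC-1, 23.8% were called higher and 27.1% lower in shFOSL1 at an adjusted p under 0.05 (edgeR), and the median log2 fold change of all genes was -0.021. The genes just inside the 10 largest rises were MT-ND2 at 1.82, MTND2P28 at 1.81 and MT-ND1 at 1.79, which are mitochondrially encoded or copies of mitochondrial sequence in the nuclear genome. Just outside were MT-TL1 at 1.78, ADM2 at 1.71 and CCN2 at 1.71. The genes ranked among the members were CHAC1 in the first place at 2.57, MIR503HG at 1.96 and FADS2 at 1.93. The share of counts on mitochondrially encoded genes was 6.99 to 7.29% in PANC-1 scramble, 12.55 to 13.3% in shFOSL1 and 11.29 to 13.01% in H1299. With those genes left out before scaling, the members' log2 fold changes in PANC-1 were 2.29 for LCMT2, 2.26 for NCOA5, 2.11 for TIGD5 and 1.86 for CCNJ, as large as with them.

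The cells expressed the marker genes of their type only in part. All 5 epithelial markers (EPCAM, KRT19, CDH1, KRT18 and KRT8) reached 1 CPM in PANC-1 and 2 of 5, KRT18 and KRT8, did so in H1299. They summed to 2010 to 2570 CPM in PANC-1 scramble and 1550 to 1580 CPM in shFOSL1, and to 544 to 606 CPM in H1299 scramble and 343 to 362 CPM in shHDAC2. The 4 pancreatic acinar markers summed to at most 0.508 CPM in any library and the 5 immune markers to at most 1.07 CPM, whereas the 4 lung alveolar markers summed to 1.77 to 3.01 CPM in H1299 scramble, mostly NKX2-1. The 4 endothelial markers, mostly PECAM1, summed to 2.18 to 3.38 CPM in the same libraries, a range that overlaps that of the lung markers. The 3 fibroblast markers summed to 221 to 279 CPM in PANC-1 scramble and 73.8 to 81.1 CPM in shFOSL1, almost wholly from COL1A1, with DCN at 0 in all shFOSL1 libraries and COL1A2 under 1 CPM. The 4 endocrine markers, almost wholly CHGB, summed to 11.4 to 13.6 CPM in PANC-1 scramble and 14.5 to 15.5 CPM in shFOSL1, and to 34.1 to 39.1 CPM in H1299 scramble and 21.8 to 22.2 CPM in shHDAC2, with INS at 0 in every library. CHGB fell by 0.74 on the log2 scale in H1299, the contrast in which CCNJ is tested (adjusted p = 7.9e-08 by edgeR). The epithelial markers KRT8 and KRT18 fell there too, by 0.76 (adjusted p = 3.0e-11) and 0.62 (adjusted p = 2.0e-09, both by edgeR). The part of these differences in the members' values was not tested. In bulk RNA, fewer cells that express a gene and less RNA in each cell cannot be told apart.

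The knockdown of HDAC2 in H1299 gave the values that were independent of the choice of members. CCNJ rose and the other 3 genes did not pass the test, so 1 of the 4 was called higher and 0 lower, where 10.3% of the 16465 genes tested were called higher and 12.1% lower. CCNJ went from 6.90 ± 0.98 to 12.2 ± 1.01 CPM (SD, n = 3), with every shHDAC2 library above every scramble library. Its log2 fold change was 0.81 (SE 0.13), or 1.75-fold with a 95% interval of 1.47 to 2.09, at an adjusted p of 2.4e-05 by edgeR. Leaving out each H1299 library in turn moved it between 0.70 and 0.91, and over all alternatives, by edgeR, DESeq2 or limma-voom, the adjusted p lay between 4.7e-08 and 0.00035.

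NCOA5 in H1299 had a log2 fold change of 0.15 (SE 0.0711, adjusted p = 0.14 by edgeR), or 1.11-fold with an interval of 1.00 to 1.22. All 3 shHDAC2 libraries lay above all 3 scramble libraries, by a margin that the highest scramble library, replicate 1, made narrow. Without that library the value was 0.20 and the adjusted p 0.019 by edgeR, so the call for NCOA5 depends on it. TIGD5 had a log2 fold change of -0.16 (SE 0.114, adjusted p = 0.35 by edgeR), or 0.896-fold with an interval of 0.768 to 1.05, and its groups overlapped. LCMT2 had a log2 fold change of -0.041 (SE 0.123, adjusted p = 0.85 by edgeR), or 0.972-fold with an interval of 0.822 to 1.15. Its groups overlapped too, and without H1299 scramble replicate 1 the value was 0.048 (adjusted p = 0.83 by edgeR). The intervals of LCMT2, NCOA5 and TIGD5 in H1299 end at 1.15-fold, 1.22-fold and 1.05-fold, whereas their PANC-1 folds were above 4. The contrasts differ in cell line, target and hairpin at once, and the difference between them was not tested.

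**Figure D2:**
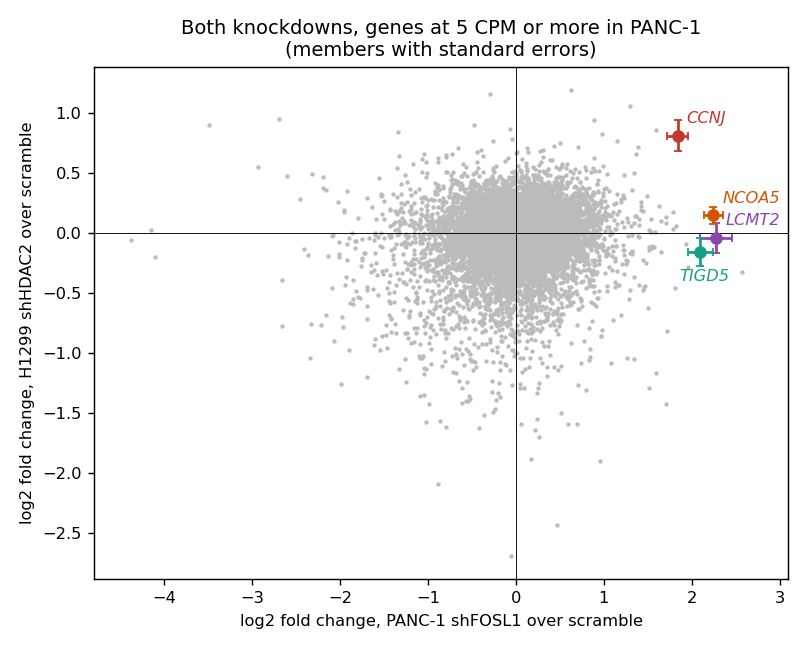
Log2 fold change in PANC-1 (horizontal, shFOSL1 over scramble) against that in H1299 (vertical, shHDAC2 over scramble) for genes tested in both lines whose PANC-1 libraries averaged 5 CPM or more (grey points), with the 4 genes in colour and bars of 1 SE. All 4 lie at the right edge because they were chosen there, and CCNJ alone lies well above the zero line, at 0.81.

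The sequences of the hairpins are shown because members are read against the scramble line, so that a match of either hairpin to a member could bear on its level. A hairpin is cut into a guide strand whose bases 2 to 8, the seed, can pair with transcripts other than the target. The study lists 1 FOSL1 hairpin and 1 scramble, as 19-base target sequences. It does not say whether the listed FOSL1 hairpin is the sh2 of the labels, and no sequence for the HDAC2 hairpin was used here. Written 5′ to 3′ in the sense of the transcript, with the 7 bases that pair with the guide's seed in capitals, they are as follows.
Scramble: cgtacgcggaaTACTTCGa
FOSL1 hairpin: gagctgcagtgGATGGTAc

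The guide was taken as the exact reverse complement of the target, and cutting at another base would shift the seed. The FOSL1 target matched the coding part of the canonical FOSL1 transcript over all 19 bases. The site, at transcript position 205, is on the reverse strand at chr11:65896933-65896961.
FOSL1 target site: gagctgcagtgGATGGTAcagcctcattt

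The canonical transcripts of LCMT2, NCOA5 and TIGD5 held no match to the scramble seed, and that of CCNJ held 1, in its coding part at position 825 (chr10:96057143-96057171, forward strand), where 9 of 19 bases equalled the scramble target. Of the other protein-coding genes tested in PANC-1, 5.96% held such a match somewhere in the transcript. Their median log2 fold change in PANC-1 was -0.061, and that of genes with no match was -0.014. The H1299 test of CCNJ also had a scramble line as its reference. In H1299 5.91% of the other protein-coding genes held a match, with a median of 0.002 against 0.009 without.
CCNJ, match to the scramble seed: ttcgaggattaTACTTCGtctttctccaa

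LCMT2 held 3 matches to the FOSL1 hairpin's seed, all in its 3′ untranslated region, at transcript positions 2471, 2522 and 5608, while NCOA5, TIGD5 and CCNJ held none. The sites lie on the reverse strand at chr15:43328086-43328114, chr15:43328035-43328063 and chr15:43324949-43324977, and 9, 10 and 12 of their 19 bases equalled the target. The first 2 sites are near copies of each other.
LCMT2, position 2471: ttgtgatttgaGATGGTAccttagaaaaa
LCMT2, position 2522: aatatatttgaGATGGTAccttagaaaaa
LCMT2, position 5608: gatctttgggaGATGGTAtgtatccaata

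A match of this seed in the 3′ untranslated region was found in 7.68% of the other protein-coding genes tested in PANC-1. Of these 1011 genes 211 were called higher and 353 lower (edgeR), with a median log2 fold change of -0.093. Of the 11296 genes with no match anywhere in the transcript, 2999 were called higher and 3191 lower, with a median of -0.007. In 11 of 13166 genes 3 or more matches were found (median log2 fold change 0.030, 3 called higher and 1 lower by edgeR). Over all 13166 genes 25.8% were called higher and 28.9% lower. The differences between these classes were not tested. A match is a description of the letters and not evidence of pairing.

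**Figure D3:**
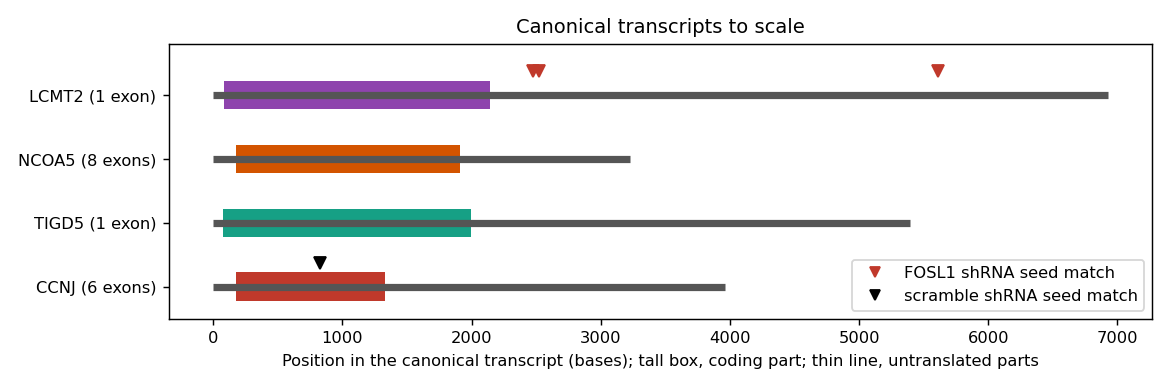
Canonical transcripts of the 4 genes drawn to scale in bases (horizontal); coloured boxes are the coding parts, grey lines the untranslated parts, and triangles the seed matches of the FOSL1 hairpin (red) and the scramble (black). LCMT2 carries 3 red triangles and CCNJ 1 black triangle, and the transcripts of NCOA5 and TIGD5 carry none.

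LCMT2 and TIGD5 share a gene structure that is uncommon. Both have a single exon and a long 3′ untranslated region, of 4783 and 3395 bases against a median of 1302 over 13170 protein-coding genes tested in PANC-1, whose median is 9 exons. Single-exon genes made up 2.23% of the other protein-coding genes tested there. Of these 294 genes 93 (31.6%) were called higher and 78 lower (edgeR), with a median log2 fold change of 0.007. Over all other protein-coding genes 25.8% were called higher and 28.9% lower, with a median of -0.016. Of the 2854 genes with a 3′ untranslated region of 3000 bases or more, 22.2% were called higher and 32.7% lower, with a median of -0.067. In the class with both features, a single exon and a 3′ untranslated region of 3000 bases or more, 15 of 38 genes (39.5%) were called higher and 9 (23.7%) lower, with a median of 0.163. In H1299 8.39% of 298 single-exon genes were called higher and 18.8% lower, and of 41 genes with both features 14.6% were called higher and 7.32% lower. Of the 2929 genes with the long 3′ untranslated region in H1299, 14% were called higher and 11.9% lower. Over all other protein-coding genes in H1299 12.2% were called higher and 13.4% lower. None of these classes was tested against the rest. NCOA5 and CCNJ have introns, so the structure is not shared by the 4. The GC content of the transcripts also differed, from 39.9% in CCNJ and 46.1% in LCMT2 to 52.0% in NCOA5 and 64.5% in TIGD5.

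Promoters are shown for the members because all 4 were higher in the same cells. RefSeq sequences (GRCh38.p14, 250 bases before to 50 after the start) were at hand for 3 members, LCMT2, NCOA5 and CCNJ. Capitals mark the motifs found.
LCMT2, chr15:43330524-43330823, reverse strand: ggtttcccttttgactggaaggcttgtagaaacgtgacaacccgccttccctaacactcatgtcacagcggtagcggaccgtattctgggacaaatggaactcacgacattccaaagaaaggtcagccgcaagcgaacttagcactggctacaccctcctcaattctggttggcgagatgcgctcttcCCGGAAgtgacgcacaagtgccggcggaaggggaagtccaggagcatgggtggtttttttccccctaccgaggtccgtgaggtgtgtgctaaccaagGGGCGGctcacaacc
NCOA5, chr20:46089913-46090212, reverse strand: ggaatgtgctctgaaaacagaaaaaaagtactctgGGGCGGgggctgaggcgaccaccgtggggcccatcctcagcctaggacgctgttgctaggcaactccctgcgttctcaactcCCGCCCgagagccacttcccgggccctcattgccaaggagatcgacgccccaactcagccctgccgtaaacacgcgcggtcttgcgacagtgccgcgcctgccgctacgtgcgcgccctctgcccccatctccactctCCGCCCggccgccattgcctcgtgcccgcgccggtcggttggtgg
CCNJ, chr10:96043333-96043632, forward strand: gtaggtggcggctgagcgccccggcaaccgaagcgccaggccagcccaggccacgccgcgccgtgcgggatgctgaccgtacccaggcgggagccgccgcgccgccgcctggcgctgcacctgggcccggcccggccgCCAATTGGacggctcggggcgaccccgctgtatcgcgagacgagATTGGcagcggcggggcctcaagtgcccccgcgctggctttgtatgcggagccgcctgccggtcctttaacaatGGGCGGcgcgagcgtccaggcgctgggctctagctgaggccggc

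Both strands of these windows were searched for 8 motifs, and the share of all 35116 promoters in the table that hold each is given with it. None of the 3 held the AP-1 motif TGANTCA, the site of FOSL1 and its partners, which 7.71% of promoters held. None held the cyclic AMP response motif TGACGTCA (1.85%), the C/EBP-ATF motif TGATGNAA (3.62%), the E-box CACGTG (7.26%) or the NRF1 motif CGCATGCG (2.02%). The GC box GGGCGG, held by 45% of promoters, was the motif that all 3 shared, with 1 match in LCMT2, 3 in NCOA5 and 1 in CCNJ. LCMT2 also had 1 ETS motif CCGGAA (17.2% of promoters). CCNJ had 3 matches to CCAAT (34.6% of promoters), of which 2 overlap on opposite strands. GC content was 55.7% for LCMT2, 66.3% for NCOA5 and 75.0% for CCNJ, against a median of 58.7%. These motifs are common, and a window of this length says nothing about sites farther away.

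In PANC-1 no gene beside a member rose by as much as the member did. The members were chosen for their large rises in that contrast, so smaller changes beside them were likely from the start. ADAL starts 90 bases from LCMT2 on the other strand, and its log2 fold change in PANC-1 was 0.040 (SE 0.122, adjusted p = 0.81 by edgeR). The next tested gene on the other side, CCNDBP1, had a value of -0.033 (adjusted p = 0.81 by edgeR). SLC12A5, a chloride transporter gene 841 bases from NCOA5, fell by 1.20 on the log2 scale from a low level (adjusted p = 0.0089 by edgeR). CD40, a receptor of the TNF receptor family 28309 bases away, fell by 1.00 (adjusted p = 7.4e-08 by edgeR). The genes on either side of NCOA5 were thus lower in the cells where NCOA5 was higher.

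TIGD5 overlaps 2 genes on the opposite strand. It shares 261 exon bases with EEF1D, a translation elongation factor subunit, and 15 with PYCR3, an enzyme of proline synthesis. Shared bases are 5.1% of its exon length. The strand setting of the counting is not given in the sources used here, so reads in the shared bases cannot be assigned with certainty. EEF1D rose by 0.15 on the log2 scale (adjusted p = 0.046), PYCR3 rose by 0.58 (adjusted p = 8.7e-05) and the nearby GFUS rose by 0.18 (adjusted p = 0.032), all by edgeR. Over all genes tested in PANC-1, 23.8% were called higher and 27.1% lower. In the 500 kb on either side of TIGD5, 18 of 43 tested genes were called higher and 6 lower in PANC-1 (median log2 fold change 0.15). In H1299 4 of 38 were called higher and 6 lower there (median -0.07), where 10.3% of all tested genes were higher and 12.1% lower. In PANC-1 the same windows held 3 higher and 8 lower of 20 around LCMT2, 3 higher and 7 lower of 17 around NCOA5, and 2 higher and 4 lower of 9 around CCNJ. SPATC1, near TIGD5, had the highest log2 fold change of these surrounding genes, at 2.04 (SE 0.526) from 0.283 CPM in the scramble, and was named after its value was seen.

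CCNJ lies within the span of ENTPD1-AS1, a long noncoding RNA gene on the opposite strand, and shares no exon base with it. ENTPD1-AS1 fell by 0.47 on the log2 scale in PANC-1 (adjusted p = 0.045), and its partner ENTPD1, 166128 bases from CCNJ, fell by 0.46 (adjusted p = 0.029). ZNF518A, a zinc finger gene 68845 bases away on the other side, rose by 0.45 (adjusted p = 0.00076), all by edgeR. In H1299, where CCNJ rose, none of the 9 tested genes within 500 kb was called in either direction. Over all genes tested in H1299, 10.3% were called higher and 12.1% lower.

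**Figure D4:**
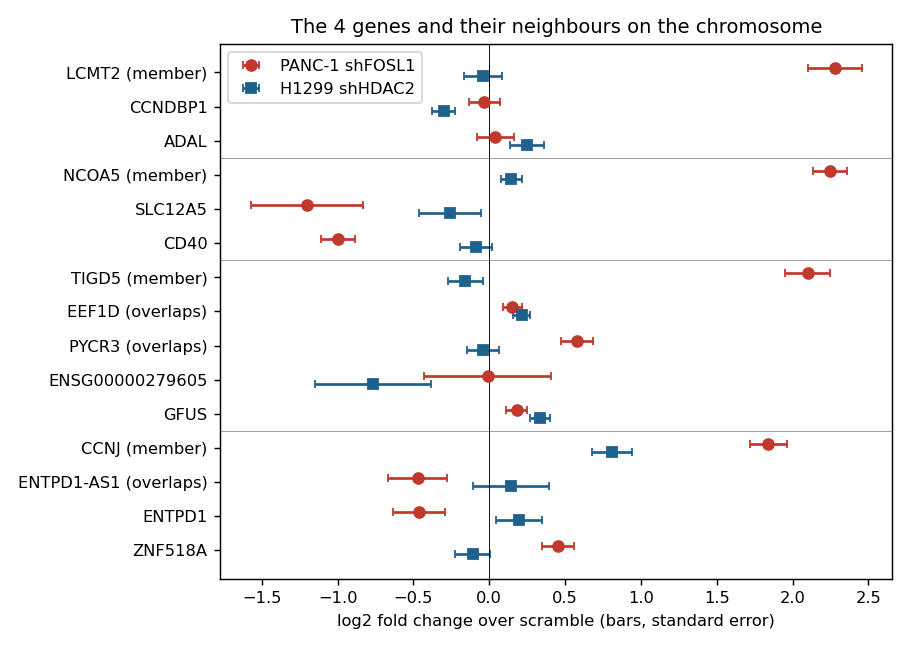
Log2 fold changes with SE (horizontal) in PANC-1 (red circles) and H1299 (blue squares) of each member and of the genes that overlap it or are its nearest tested neighbours; lines separate the members. The red circles of the members, which were chosen by their PANC-1 rise, lie at 1.84 to 2.28, and no neighbour's lies above 0.58.

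The counts in the lists that follow stand beside these shares of all tested genes. In PANC-1 23.8% were called higher and 27.1% lower, and in H1299 10.3% higher and 12.1% lower. In the pathway of LCMT2, wybutosine synthesis, 2 of the other 6 genes were called higher and 0 lower in PANC-1 (edgeR), with a median log2 fold change of 0.17. TRMT5, which makes the first methylation of the pathway, rose by 0.71 (adjusted p = 6.4e-06), and TYW1, which builds the tricyclic core, rose by 0.32 (adjusted p = 0.0055). In H1299 2 other members were called higher, TYW3 by 0.39 and TRMT12 by 0.26. LCMT1, the relative of LCMT2 that methylates the catalytic subunit of protein phosphatase PP2A, had a PANC-1 value of -0.13 (adjusted p = 0.25 by edgeR). Of 8 PP2A methylation and core genes, 1 rose, the catalytic subunit PPP2CA (0.28), and 2 fell, PPP2CB (-0.26) and the methylesterase PPME1 (-0.24). Among 28 other tRNA methyltransferases and their partners 13 rose and 2 fell in PANC-1, with a median of 0.27. TRMT61A, which methylates adenosine in tRNA, rose by 0.93 and the mitochondrial TRMT10C by 0.87, while FTSJ1 and TRMT11 each had a value of -0.22. The count of 2 that fell became 0 by DESeq2 and with the loosest filter, and 1 by limma-voom. In H1299 5 rose and 2 fell, with a median of 0.11, TRMT10C among the higher (0.34). LCMT2, at 2.28, lay beyond every gene of these lists in PANC-1, but it was chosen by that value.

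Among 16 coregulators of nuclear receptors other than NCOA5, 8 rose and 1 fell in PANC-1 (edgeR), with a median of 0.19. NRIP1, which represses receptor activity, rose by 0.86. Of the genes that share the NCOA name, NCOA7 rose by 0.72, NCOA2 by 0.33 and NCOA6 by 0.18 (adjusted p = 0.041), and NCOA3 fell by 0.37. NCOA1 (0.20) and NCOA4 (0.15) did not pass the test. In H1299 3 of the 16 rose and none fell (median 0.09), PPARGC1B by 0.47, MED1 by 0.24 and CITED2 by 0.18, while NCOA1 to NCOA4, NCOA6 and NCOA7 did not pass. The receptors themselves were divided in PANC-1, with 7 of 26 tested called higher and 8 lower and a median of -0.06. VDR, the vitamin D receptor, rose by 0.67 and NR2F6 by 0.56, and the clock-linked NR1D1 fell by 1.82 and the immediate early gene NR4A1 fell by 1.64. In H1299 5 of 30 rose and 3 fell, VDR now with a value of -0.91 and THRB with -2.84, and ESRRB with 2.26 and NR4A3 with 0.93. The THRB and ESRRB values come from low levels. THRB was at 0.716 CPM with the scramble and 0.0896 CPM with shHDAC2 (SE 0.644). ESRRB was at 0.417 and 2.01 CPM (SE 0.388).

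Of 11 other genes derived from pogo-type transposases, 5 rose and 1 fell in PANC-1 (edgeR), with a median of 0.10. TIGD6 rose by 0.98 (adjusted p = 5.2e-05), CENPB by 0.74 (adjusted p = 4.8e-09) and TIGD2 by 0.66 (adjusted p = 0.0052), while TIGD1 fell by 0.53 (adjusted p = 0.0063). TIGD3 (0.07), TIGD4 (-0.69) and TIGD7 (-0.30) did not pass the test. In H1299 1 of the 11 was called, TIGD1, which rose by 0.31 (adjusted p = 0.015 by edgeR). Genes from other transposase families had the highest median of any list in PANC-1, 0.65, with 7 of 11 tested called higher and 1 lower. SETMAR, a fusion of a histone methyltransferase with a transposase, rose by 1.03 and ZBED4 by 1.01, and ZBED6 fell by 0.98. SETMAR and ZBED6 were at low levels with the scramble, 3.16 CPM (SE 0.173) and 2.65 CPM (SE 0.278). In H1299 2 of these rose, PGBD4 by 0.41 and ZBED4 by 0.27, with a median of 0.02. TIGD5 stood at 2.10 in PANC-1, more than 1 log2 unit above the highest of the other pogo-derived genes, but it was chosen by that value.

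Of the 24 cyclins other than CCNJ tested in PANC-1, 5 rose, 13 fell and 6 did not pass the test (edgeR), with a median log2 fold change of -0.21. CCNG2, a cyclin linked to cell cycle exit, fell by 1.28 and the meiotic cyclin CCNB3 fell by 1.01, whereas CCNL2, a splicing-linked cyclin, rose by 0.55 and the mitotic cyclin CCNB1 by 0.35. The CCNB3 value comes from a low level, 3.31 CPM with the scramble and 1.67 CPM with shFOSL1 (SE 0.287). CCNJL, the closest relative of CCNJ, rose by 0.30 (adjusted p = 0.0016) in PANC-1 and had a value of -0.17 (adjusted p = 0.17) in H1299, where CCNJ rose (both by edgeR). In H1299 3 of 25 other cyclins rose and 3 fell, with a median of 0.00. CCNA2 rose there by 0.30 and CCNI by 0.18, and CCND2 fell by 1.28 and CCNE1 fell by 0.57. Among 18 cyclin-dependent kinases 4 rose and 5 fell in PANC-1, with a median of -0.02, and CDK6, a kinase of the G1 phase, rose in both lines, by 0.95 in PANC-1 and by 0.52 in H1299. CDK13 rose by 0.36, CDK18 fell by 1.64 and CDK1 fell by 0.58 in PANC-1, and in H1299 3 of 17 kinases rose, among them CDK1 by 0.28, and none fell.

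**Figure D5:**
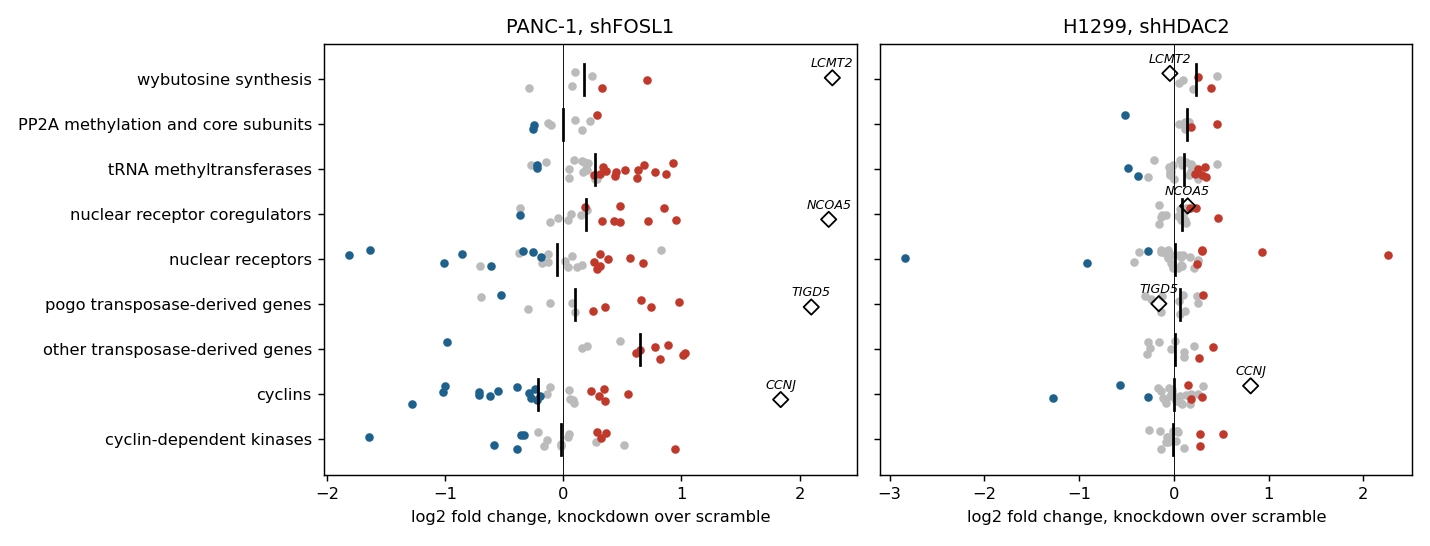
Log2 fold change (horizontal) in PANC-1 (left) and H1299 (right) of the tested genes in 9 lists of related genes (rows); red points were called higher and blue points lower by edgeR, grey points were not called, black bars are list medians without the members, and diamonds are the members. In PANC-1 each diamond lies to the right of every point in its row, which follows largely from the choice of the members by that contrast. In H1299, which the choice did not use, only the diamond of CCNJ lies to the right of every point in its row.

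Across libraries the members resembled each other and a set of other genes. With log2 CPM centred within each cell line, Pearson's r over the 12 libraries was 0.993 between LCMT2 and TIGD5, 0.982 between LCMT2 and NCOA5 and 0.966 between NCOA5 and TIGD5. CCNJ was less like them, at 0.832 with TIGD5, 0.873 with LCMT2 and 0.922 with NCOA5. These values mostly restate the PANC-1 contrast that chose the members, since the 12 points form few groups, and they carry no test. Among 10265 genes with at least 5 CPM in each line, the most like LCMT2 were SLC4A2 (r = 0.997), TIGD5 and DVL3 (r = 0.993). Those most like NCOA5 were SRSF7 (0.995), SUPT6H (0.994) and ZBED3 (0.993). TIGD5 was nearest to LCMT2, TM7SF2 (0.991) and CDC34 (0.99), and CCNJ to FASTKD5 (0.987), MEF2C (0.987) and CRK (0.986). The genes alike in pattern differed from the members in size, since in PANC-1 their log2 fold changes ran from 0.38 for DVL3 to 1.58 for ZBED3.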

How the data were processed

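The authors prepared libraries with the NEBNext Ultra RNA kit and sequenced paired ends. Their processing notes name cutadapt and FastQC, with STAR 2.7.2b for alignment to GRCh38 and featureCounts 2.0.1 for reads per gene. The annotation release and strand setting are not given in the sources used here. The deposited values are whole-number counts, 16065723 to 19173421 per library. Groups followed the labels.

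Each knockdown was compared with the scramble of its own line by edgeR 4.0.16 in R 4.3.3 (filterByExpr, TMM, quasi-likelihood test, Benjamini-Hochberg adjustment over all tested genes, threshold 0.05), checked on simulated counts. An SD covers 3 libraries. CPM used TMM over all 12 libraries, and CPM per kb the GENCODE release 44 exon length. The biological coefficient of variation was 0.0687 in PANC-1 and 0.0609 in H1299. Alternatives were DESeq2 1.42.0, limma-voom (limma 3.58.1), other scalings and filters, a replicate block, a fit of all libraries, and each library left out.

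The members and lists were chosen with earlier results of these data known. Named besides the members were closest relatives, up to 2 genes per direction with the largest called change in a list, the targeted genes, overlapping and nearest neighbours, genes around rank 10, and the 3 genes most like each member. A gene that this rule would name is not reported here.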

Additional observations from a re-analysis of the deposited data

How the results depend on the processing

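In PANC-1 the members kept their direction under every alternative, at 2.14 to 2.45 for LCMT2, 2.24 to 2.29 for NCOA5, 1.98 to 2.36 for TIGD5 and 1.79 to 2.00 for CCNJ (log2 fold change) when 1 library was left out. NCOA5 was at 2.29 without scramble replicate 3 and TIGD5 at 2.36 without scramble replicate 1. In H1299 leaving out 1 library gave 0.70 to 0.91 for CCNJ, 0.12 to 0.20 for NCOA5, -0.24 to -0.076 for TIGD5 and -0.089 to 0.048 for LCMT2. Without H1299 scramble replicate 1 NCOA5 passed the test (0.20, adjusted p = 0.019 by edgeR) and LCMT2 changed sign to 0.048 (adjusted p = 0.83). Over all alternatives the adjusted p of NCOA5 lay between 0.019 and 0.32. CCNJ stayed past the threshold throughout.

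The number of genes called higher in H1299, 1702, lay between 995 and 2074 with 1 library left out. It was 1105 without shHDAC2 replicate 1, 995 without shHDAC2 replicate 3 and 2074 without scramble replicate 1. Equal replicate numbers gave no sign of pairing, since the deviations of equal-numbered libraries correlated between -0.047 and 0.033. With the replicate number as a block CCNJ in H1299 had a value of 0.81 (adjusted p = 4.5e-05 by edgeR) and NCOA5 0.15 (adjusted p = 0.14), 3961 genes were called higher and 4443 lower in PANC-1, and 1716 higher and 1950 lower in H1299. Of the counts of called genes in the lists under the alternatives, 465 stayed within 1.5 times and 75 did not, all of them counts of 0 to 4 genes. The tRNA methyltransferases that fell in PANC-1, 2 by edgeR, numbered 0 by DESeq2, with the loosest filter and without shFOSL1 replicate 1 or scramble replicate 3. The PP2A genes that rose there, 1 by edgeR, numbered 3 with RLE scaling, and the genes of other transposase families that rose in H1299, 2 by edgeR, numbered 1 by DESeq2 and limma-voom. LCMT2 had 28 to 43 reads per PANC-1 scramble library, so its fold is the least precise of the 4.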
